A study of Ambystoma mexicanum with 198 samples.

Results

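CD68, CSF1R, MARCO, CYBB, SPI1 and AIF1 are 6 genes used to mark macrophages, the phagocytes that engulf debris and pathogens in injured tissue and release signals that act on the cells around them. Some macrophages reside in a tissue and others arrive as monocytes from the blood after injury, and in salamanders their depletion is known to block limb regeneration. Their probes were taken by symbol from the platform annotation and the study's own probe list. This gave 7 probes for the 6 genes out of 20035 probes tested, of which 10951 carry 1 symbol, for 8639 symbols in all. CSF1R has 2 probes, and every other gene has 1. The probe axo10884-f_at of CSF1R was dim, between 4.51 and 5.47 on the log2 scale in all 198 arrays, and passed in no comparison of time points. CSF1R is represented below by its second probe, axo10885-f_at, the brighter of the 2 and the one in the study's list. That list holds probes that differed between adjacent time points of these same arrays.

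The study followed forelimbs of axolotls (Ambystoma mexicanum) under a year old, cut at mid-zeugopod, where the limb holds radius and ulna. Each array held RNA from 1 sample of the distal-most 1 mm, a mixture of epidermis, connective tissue, muscle, blood and bone, with untrimmed bones. There were 10 arrays at each of 0.5, 1, 1.5, 2, 3, 4, 5, 7, 9, 10, 12, 14, 18, 20, 22, 24 and 26 days post-amputation (DPA), 9 arrays at 16 and at 28 DPA, and 10 arrays at day 0, taken immediately after amputation. No transgene or drug distinguishes the groups, and day 0 is the only control. The animals differed in body size and came from several spawns, and the labels do not tie samples to spawns. The values are log2 intensities normalized by RMA, a method that corrects background, equalizes the distributions of arrays and summarizes each probeset. Array medians lay between 5.70 and 5.90, and arrays of the same time point correlated across probes at r = 0.962 to 0.994. Which limbs came from the same animal is not stated, so p-values measure the spread between these samples. The number of arrays limits the precision.

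The codes of the samples carry letters, and those of replicates 6 to 10 differ from those of replicates 1 to 5. The letters change after 2 DPA and after 18 DPA in both sets of replicates, and also after 9 DPA in replicates 6 to 10. The meaning of the letters is not given. From 3 DPA on, comparisons with day 0 span different letters, except that replicates 1 to 5 return to the day 0 letters at 20 to 28 DPA. Time and letter series cannot be told apart in the comparisons that span them, and values within a single series are given for that reason. In bulk tissue, more or fewer macrophages and more or less RNA of a gene per cell also cannot be told apart. The paper states that, with outgrowth of the bud, its later samples held more regenerated tissue and its early ones more stump. Changes within a tissue and changes of the tissue sampled cannot be told apart either.

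The 6 genes hold different positions in macrophage biology, which is known mainly from mammals. SPI1 encodes PU.1, the transcription factor that sets the myeloid lineage and activates CSF1R. CSF1R is the receptor for the growth factors CSF1 and IL34, on which most macrophages depend for survival. CYBB is the catalytic subunit of the phagocyte NADPH oxidase, which makes superoxide, and AIF1 (also called IBA1) is an actin-bundling protein of motile macrophages. CD68 is a glycoprotein of late endosomes and lysosomes, and MARCO is a scavenger receptor that binds bacteria and particles. CYBB and SPI1 are also expressed in neutrophils, and osteoclasts, which arise from the same lineage, express CSF1R, CD68 and SPI1.

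All 6 genes rose after amputation, were above day 0 from 1.5 to 14 DPA and came down late. The numbers past the threshold upward were 1, 0 and 2 of the 6 genes at 24, 26 and 28 DPA, where 12.9%, 11.7% and 10.7% of all probes passed. In 19 comparisons of each gene with day 0, 85 of 114 passed upward and 0 passed downward, where 9.63% of probe comparisons passed upward and 8.28% downward over all probes. At an unadjusted p under 0.05, 0 were lower as well. A probe passed when its limma adjusted p (Benjamini-Hochberg over 20035 probes) was under 0.05 and its difference was at least 0.58 on the log2 scale, or 1.5-fold. CYBB passed in 17 comparisons, AIF1 and CD68 in 16 each, MARCO in 13, SPI1 in 12 and CSF1R in 11. Of all probes, 7.59% passed upward in at least 11 comparisons, 6.53% in at least 12, 5.6% in at least 13, 2.34% in at least 16 and 1.79% in at least 17. These comparisons share the day 0 arrays. All 6 probes are also in the study's list of probes that differed between adjacent time points of these arrays. Counts above the share of all probes are therefore no independent evidence. Tested alone, replicates 6 to 10 gave 74 upward calls and replicates 1 to 5 gave 80, with none downward in either set.

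**Figure D1:**
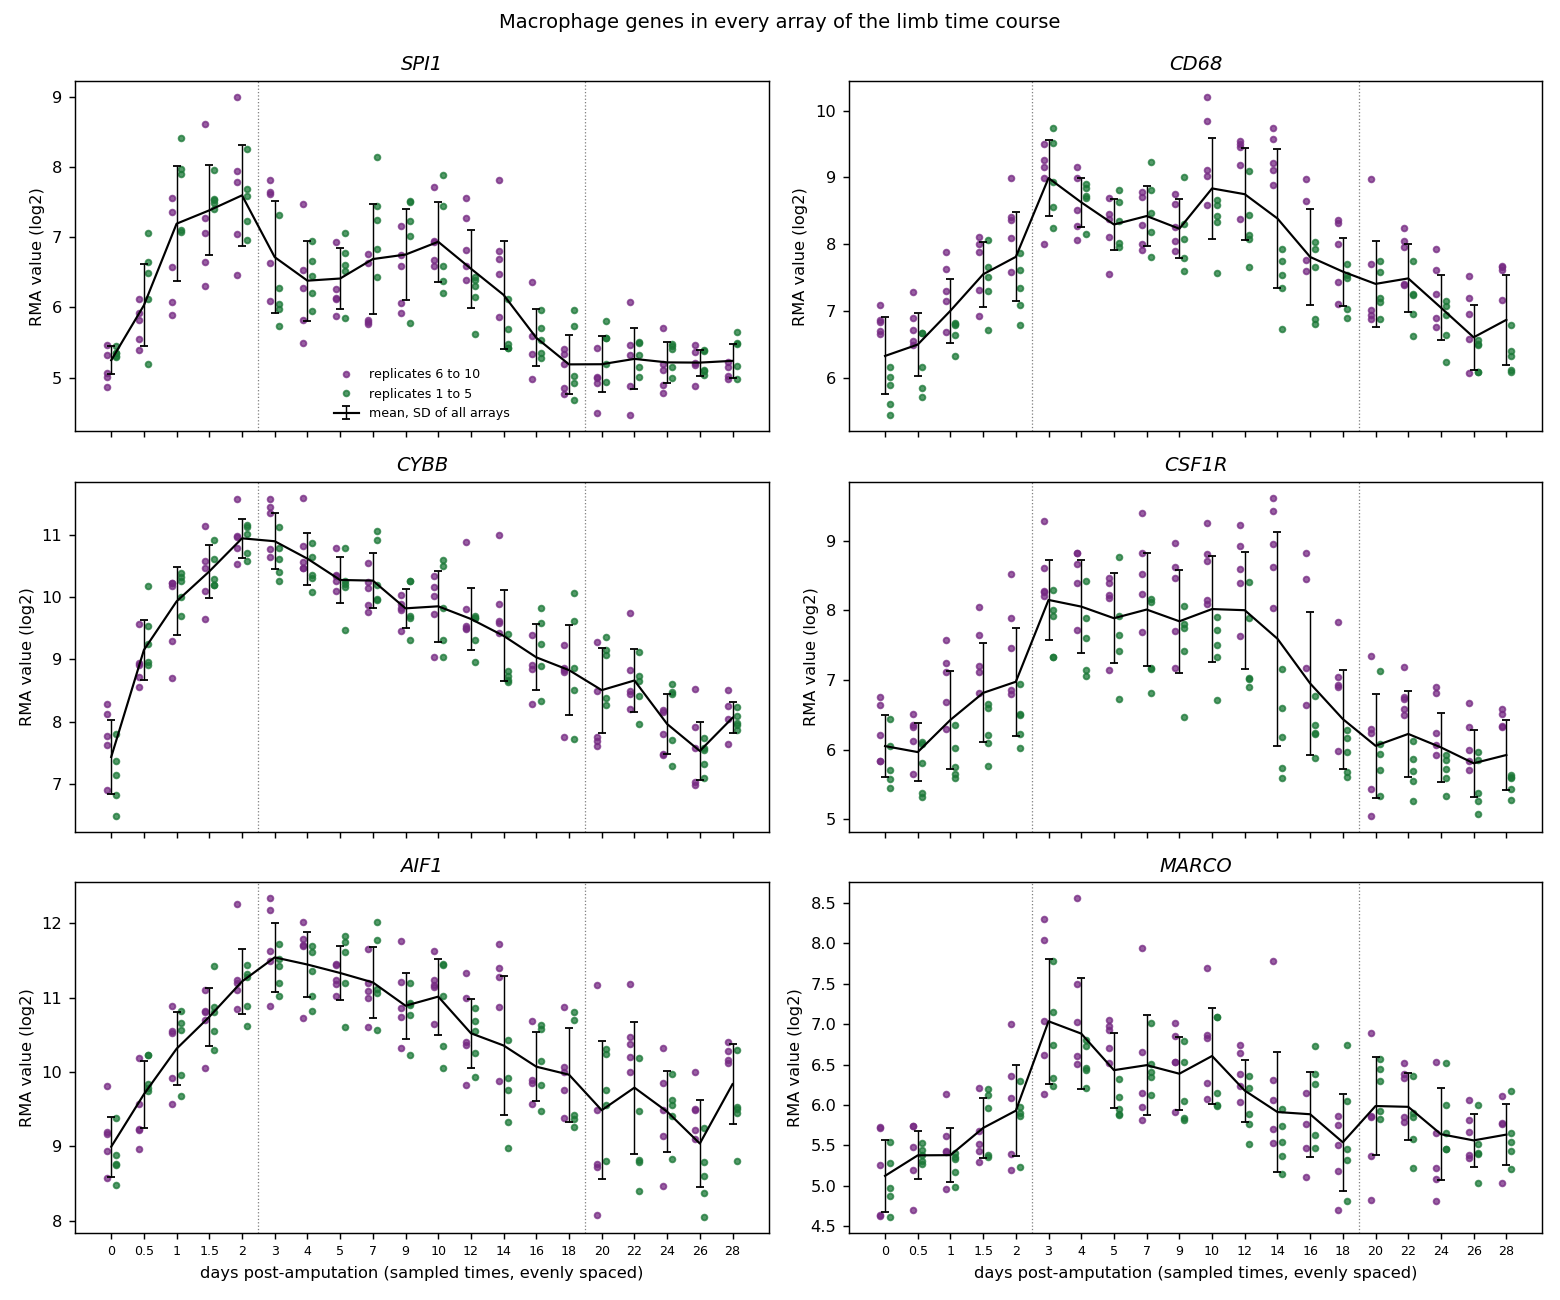
Each point is the RMA value (log2) of 1 array for the gene named above the panel, against days post-amputation at the sampled times, evenly spaced. Purple points are replicates 6 to 10 and green points replicates 1 to 5. Black lines join the means of all arrays of a time point with SD bars, and dotted lines mark the changes of letter series shared by both sets, after 2 and after 18 DPA. The panels show early increases of SPI1, CYBB and AIF1, a step of CD68, CSF1R and MARCO at 3 DPA, and the wide spread of CSF1R at 14 DPA.

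Among the increases at 0.5 DPA, that of CYBB was the largest of the 6 genes. Its lowest, median and highest values were 8.55, 8.95 and 10.17 at 0.5 DPA, against 6.48, 7.50 and 8.28 at day 0, so the 2 groups of 10 arrays did not overlap. The log2 difference was 1.72 (SE = 0.23, limma adjusted p = 1.5e-05), or 3.29-fold. Of all probes, 1.54% separated upward in this way at 0.5 DPA. CYBB continued to 10.53, 10.97 and 11.58 at 2 DPA, its highest mean (10.95 ± 0.31, SD, n = 10), 3.51 above day 0 (SE = 0.20, adjusted p = 1.88e-11). That is 11.4-fold, the largest difference among the 6 genes.

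SPI1 and AIF1 also passed at 0.5 DPA, where 3 of 6 genes passed upward against 2.8% of all probes. The lowest, median and highest values of SPI1 were 5.19, 6.02 and 7.06 at 0.5 DPA, against 4.86, 5.31 and 5.47 at day 0. The groups overlapped, since 2 of the 10 later arrays lay within the day 0 range, and the difference was 0.78 (SE = 0.18, adjusted p = 0.0082). At 1 DPA the SPI1 arrays ran from 5.89 to 8.41 and no longer overlapped those of day 0, as was so for 2.64% of all probes, with a difference of 1.94 (SE = 0.25, adjusted p = 6.15e-06). AIF1 ran from 8.97 to 10.24 at 0.5 DPA (median 9.77), against 8.48 to 9.82 at day 0 (median 8.91). Its difference was 0.71 (SE = 0.18, adjusted p = 0.015), and its groups first separated at 1.5 DPA, where 3.51% of all probes did, with a difference of 1.75 (SE = 0.17). The calls at 0.5 DPA did not hold in each set alone. SPI1 differed by 0.61 in replicates 6 to 10 (adjusted p = 0.059) and by 0.95 in replicates 1 to 5 (adjusted p = 0.092), and AIF1 by 0.30 in replicates 6 to 10 (adjusted p = 0.63) and by 1.12 in replicates 1 to 5 (adjusted p = 0.0024), while CYBB passed in both.

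Neutrophils are the other phagocytes of early wounds. Most neutrophil genes with a probe first passed upward at 0.5 DPA, as CYBB and SPI1 did, while CTSG and MMP9 never did. Whether they varied with CYBB and SPI1 across samples was not tested. Of 20 neutrophil symbols sought, the platform annotation named 1 and the study's own probe list another 7. That list holds probes that differed between adjacent time points of these same arrays, so neither the direction nor the timing of its 7 genes is independent evidence. Of its 1538 probes, 887 also had a symbol in the platform annotation, and 882 of these had the same one. At 0.5, 1, 2 and 3 DPA, 6 of the 7 genes passed upward against day 0, where 2.8%, 4.95%, 6.7% and 8.87% of all probes did. MPO, the myeloperoxidase of neutrophil granules, had lowest, median and highest values of 5.09, 8.88 and 9.97 at 0.5 DPA, against 4.01, 4.73 and 5.18 at day 0. Of the 10 later arrays 1 fell within the day 0 range, and the difference was 3.86 (SE = 0.44, limma adjusted p = 2e-06).

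PRTN3, proteinase 3 of the same granules, averaged 10.33 ± 0.27 at 2 DPA, against 4.99 ± 0.37 at day 0 (SD, n = 10 each), a difference of 5.34. At 2 DPA the differences were 5.32 for MPO, 4.72 for the chemokine receptor IL8RA, 4.48 for the antimicrobial peptide gene CAMP, 3.99 for the collagenase MMP8 and 3.17 for the peptidoglycan-binding gene PGLYRP1 (SE from 0.14 to 0.49 over these 6 genes). MPO, PRTN3, IL8RA, CAMP and PGLYRP1 had their largest difference at 2 DPA, as CYBB and SPI1 did, and MMP8 at 1 DPA. At 18 DPA 0 of the 7 passed upward, where 11.6% of all probes did. CTSG, a protease also found in mast cells, fell in 17 of 19 comparisons and PGLYRP1 in 4, where 8.28% of probe comparisons passed downward over all probes. MMP9, the gene of the platform annotation, passed in none (5.27 ± 0.14 at 3 DPA, against 5.11 ± 0.13 at day 0). The part of neutrophils in the values of CYBB and SPI1 was not tested.

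The lysosomal and cell surface genes CD68, CSF1R and MARCO followed. At 0.5 DPA their differences from day 0 were 0.17, −0.09 and 0.25, with adjusted p of 0.74, 0.85 and 0.39. CD68 first passed at 1 DPA, where 4 of 6 genes passed upward against 4.95% of all probes, with lowest, median and highest values of 6.33, 6.81 and 7.89, against 5.44, 6.42 and 7.09 at day 0. These groups overlapped widely, and the difference was 0.68 (SE = 0.22, adjusted p = 0.034). CSF1R first passed at 1.5 DPA with a difference of 0.76 (SE = 0.25, adjusted p = 0.022), as did MARCO with 0.59 (SE = 0.17, adjusted p = 0.011), so that all 6 passed there against 6.12% of all probes. CD68 did not pass at 1 DPA with array weights (0.51, adjusted p = 0.093), with the methods' t test or in replicates 6 to 10 alone. CSF1R did not pass at 1.5 DPA in 1 fit of all arrays (adjusted p = 0.063), with the t test at p = 0.01 or in replicates 1 to 5 alone, and MARCO did not in replicates 6 to 10 alone (0.44, adjusted p = 0.28).

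At 3 DPA every array lay above every day 0 array for all 6 genes, a separation found for 4.77% of all probes. All 6 passed upward, against 8.87% of all probes. The lowest, median and highest values of CD68 were 8.00, 9.07 and 9.73 at 3 DPA, against 5.44, 6.42 and 7.09 at day 0, a difference of 2.66 (SE = 0.24, adjusted p = 1.95e-08) or 6.32-fold. CSF1R had 7.33, 8.23 and 9.28 at 3 DPA, against 5.45, 5.95 and 6.76 at day 0, a difference of 2.10 (SE = 0.22, adjusted p = 1.2e-07). MARCO had 6.13, 6.89 and 8.30 at 3 DPA, against 4.62, 5.11 and 5.72 at day 0, a difference of 1.91 (SE = 0.26, adjusted p = 5.07e-06). For these genes and for AIF1, 3 DPA was the time of the largest difference. AIF1 averaged 11.54 ± 0.46 at 3 DPA, against 8.99 ± 0.40 at day 0 (SD, n = 10 each), a difference of 2.55 (SE = 0.18, adjusted p = 1.01e-09). At 4 and 7 DPA the arrays of all 6 genes again lay wholly above day 0, where 4.67% and 5.05% of all probes did so. All 6 genes also passed upward at 4, 5, 7, 9, 10, 12 and 14 DPA, where 8.56%, 9.61%, 9.39%, 10.5%, 11.7%, 11.3% and 11.0% of all probes passed.

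**Figure D2:**
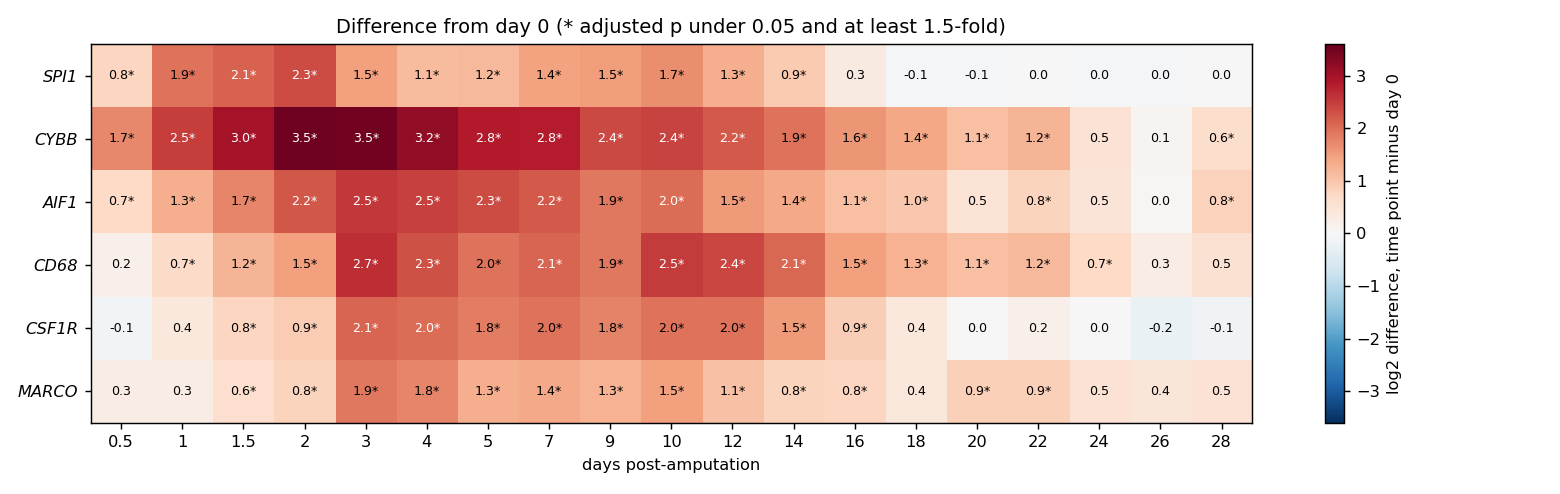
Each cell gives the log2 difference of a gene (rows) at a time point (columns, days post-amputation) minus day 0, coloured red for higher and blue for lower. Asterisks mark limma adjusted p under 0.05 with at least 1.5-fold. All 6 genes carry asterisks from 1.5 to 14 DPA, and at 26 DPA none does.

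Scaled to its own largest difference, each gene traced a different early course. At 1 DPA, SPI1 stood at 82.8% of its largest log2 difference from day 0, CYBB at 71.2% and AIF1 at 51.8%, while CD68 stood at 25.4%, CSF1R at 17.9% and MARCO at 13.4%. At 2 DPA, CD68, CSF1R and MARCO had reached 55.7%, 44.0% and 42.2%, and AIF1 87.3%. The percents have unlike bases. For SPI1 and CYBB the largest difference lay at 2 DPA, in the letter series of day 0. For AIF1, CD68, CSF1R and MARCO it lay at 3 DPA, after both sets change letters. Part of the gap between the genes at 1 DPA therefore comes from the scaling. SPI1 was at its largest by then and stood at 62.5% at 3 DPA and 49.6% at 5 DPA, before it stood at 71.8% at 10 DPA. CSF1R remained at 87.5% at 5 DPA and 93.7% at 10 DPA, and CD68 stood at 71.5% at 9 DPA and 94.2% at 10 DPA. From 9 to 10 DPA 0 of the 6 genes passed in either direction, and replicates 6 to 10 change letters there. The difference of CD68 from day 0, replicates 6 to 10 minus replicates 1 to 5, was −0.85 at 9 DPA and 0.04 at 10 DPA (limma interaction adjusted p = 0.10 and 0.97). The study had listed SPI1, AIF1 and CYBB for the first day and CD68, CSF1R and MARCO for 2 to 3 DPA from these same arrays. It listed CYBB for a late interval too. This split of the genes is therefore a description and no independent evidence.

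**Figure D3:**
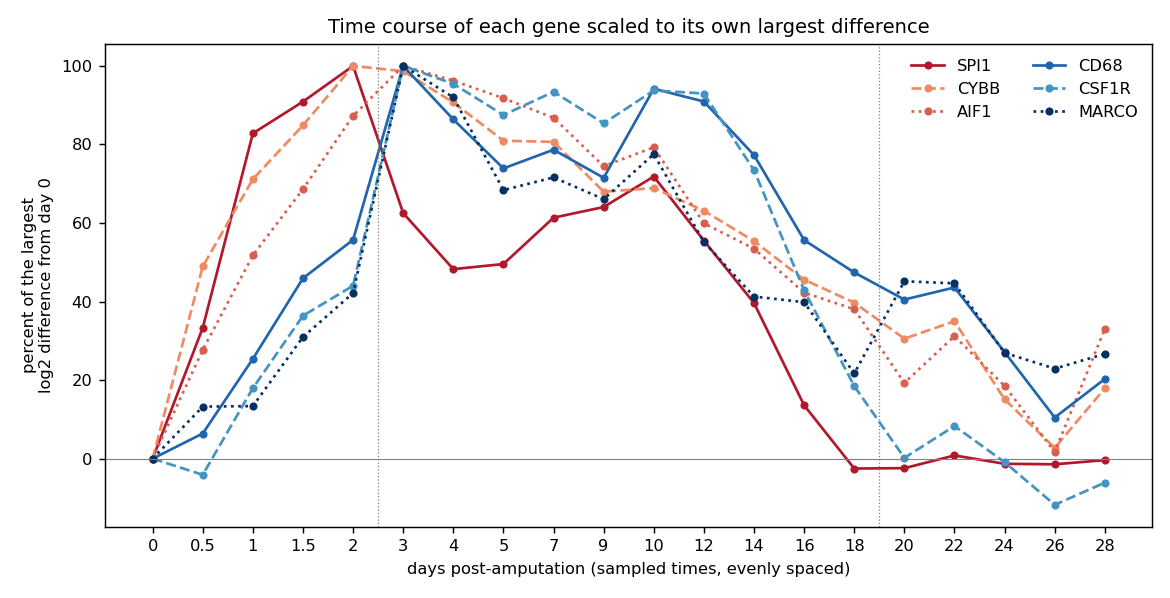
The vertical axis gives the mean log2 difference from day 0 as a percent of each gene's own largest difference, and the horizontal axis the sampled times in days post-amputation, evenly spaced. Red lines (SPI1, CYBB, AIF1) lie above blue lines (CD68, CSF1R, MARCO) at 1 DPA, between 51.8% and 82.8% against 13.4% to 25.4%. The largest difference is at 2 DPA for SPI1 and CYBB and at 3 DPA, in other letter series than day 0, for the others. Dotted lines mark the changes of letter series after 2 and 18 DPA.

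Between adjacent time points 8 of 114 gene comparisons passed upward and 0 downward, where 0.353% and 0.211% of probe comparisons did. The probes of all 6 genes are in the study's list of probes that differed between adjacent time points of these same arrays. The 8 upward calls fall in the intervals for which it lists these genes, so they are a description and no independent evidence. Beside the 0 downward, 9 were lower at an unadjusted p under 0.05, and the methods' t test at p = 0.01 called 1, CYBB at 24 against 22 DPA. The study's own list also holds CYBB for the interval from 22 to 24 DPA. SPI1 at 3 against 2 DPA was the 1 downward call in a single model over every array, with the replicate block, and in replicates 1 to 5 alone. Among the 8, from day 0 to 0.5 DPA, were CYBB, SPI1 and AIF1, with the values given above. From 0.5 to 1 DPA, where 1.27% of all probes passed upward, SPI1 averaged 7.19 ± 0.82 at 1 DPA, against 6.03 ± 0.58 at 0.5 DPA (SD, n = 10 each), and CYBB 9.93 ± 0.55 at 1 DPA, against 9.15 ± 0.48 at 0.5 DPA. Their differences were 1.16 (SE = 0.30, limma adjusted p = 0.026) and 0.78 (SE = 0.22, adjusted p = 0.043). Neither passed in replicates 6 to 10 alone, in replicates 1 to 5 alone or with the methods' t test after Benjamini-Hochberg adjustment. From 2 to 3 DPA, where 1.64% of all probes passed upward, CD68 averaged 8.99 ± 0.57 at 3 DPA, against 7.81 ± 0.66 at 2 DPA. CSF1R averaged 8.15 ± 0.57 at 3 DPA, against 6.98 ± 0.78 at 2 DPA, and MARCO 7.04 ± 0.77 at 3 DPA, against 5.93 ± 0.56 at 2 DPA. The differences were 1.18 (SE = 0.26, adjusted p = 0.0076), 1.17 (SE = 0.29, adjusted p = 0.014) and 1.11 (SE = 0.28, adjusted p = 0.019).

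Both sets of replicates change letter series at this interval, and in replicates 6 to 10 alone none of the 3 passed. CD68 differed by 0.70 in replicates 6 to 10 (adjusted p = 0.28) and by 1.66 in replicates 1 to 5 (adjusted p = 0.0065). CSF1R differed by 1.02 (adjusted p = 0.17) and 1.33 (adjusted p = 0.0047) in these sets, and MARCO by 1.22 (adjusted p = 0.22) and 0.99 (adjusted p = 0.046). SPI1 moved in the other direction over the same interval. It averaged 6.71 ± 0.80 at 3 DPA, against 7.60 ± 0.72 at 2 DPA, with a difference of −0.88 that did not pass in all arrays. In replicates 1 to 5 alone it was −1.27 (SE = 0.31, adjusted p = 0.023), and in replicates 6 to 10 it was −0.49 (adjusted p = 0.68).

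Within arrays, the change of CD68 from 2 to 3 DPA exceeded that of SPI1 by 2.06 (SE = 0.36), the change of CSF1R exceeded it by 2.05 (SE = 0.28) and that of MARCO by 1.99 (SE = 0.21), on the log2 scale. The sign was the same in both sets, at 1.19, 1.50 and 1.70 in replicates 6 to 10 and 2.93, 2.60 and 2.27 in replicates 1 to 5. Between CD68, CSF1R and MARCO the changes differed by 0.00 to 0.07 in all arrays, but the sets went in opposite directions. CD68 minus CSF1R stood at −0.32 in replicates 6 to 10, against 0.32 in replicates 1 to 5, CD68 minus MARCO was −0.52 and 0.66 in these sets, and CSF1R minus MARCO was −0.20 and 0.34. No test is given for these pairs, since the study listed the genes by this interval.

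The increase up to 2 DPA lies within a single letter series in each set of replicates. All 6 genes passed upward at 2 DPA against day 0, where 6.7% of all probes did. The log2 differences there were 3.51 for CYBB, 2.35 for SPI1, 2.22 for AIF1, 1.48 for CD68, 0.92 for CSF1R and 0.81 for MARCO (SE from 0.18 to 0.27). In the sets alone, CSF1R differed by 1.25 in replicates 6 to 10 (adjusted p = 0.017) and by 0.60 in replicates 1 to 5 (adjusted p = 0.068). MARCO differed by 0.82 in replicates 6 to 10 (adjusted p = 0.12) and by 0.80 in replicates 1 to 5 (adjusted p = 0.020). The other 4 genes passed in each set.

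From 3 to 9 DPA, again within 1 series in each set, 3 genes fell, where 2.91% of all probes passed downward. CYBB averaged 9.82 ± 0.31 at 9 DPA, against 10.90 ± 0.45 at 3 DPA (SD, n = 10 each), with a difference of −1.08 (SE = 0.16, limma adjusted p = 1.2e-04). CD68 fell by 0.76 (SE = 0.22, adjusted p = 0.019) and AIF1 by 0.65 (SE = 0.19, adjusted p = 0.024). MARCO differed by −0.65 (adjusted p = 0.11), CSF1R by −0.31 (adjusted p = 0.55) and SPI1 by 0.04 (adjusted p = 0.96). In either set alone only CYBB passed.

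The period of bud growth from 10 to 18 DPA, within 1 series in each set, was an interval in which all 6 genes fell, where 3.75% of all probes did. The part of the changing share of stump tissue in this fall was not tested. SPI1 separated completely, with lowest, median and highest values of 4.68, 5.11 and 5.97 at 18 DPA, against 6.20, 6.80 and 7.89 at 10 DPA, a difference of −1.75 (SE = 0.21, limma adjusted p = 9.53e-06). Of all probes, 0.804% separated downward in this way. CSF1R had 5.61, 6.22 and 7.84 at 18 DPA, against 6.72, 8.00 and 9.25 at 10 DPA, and fell by 1.58 (SE = 0.31, adjusted p = 8.4e-04). CD68 fell by 1.24, MARCO by 1.07, AIF1 by 1.05 and CYBB by 1.03 (SE from 0.24 to 0.28, adjusted p from 0.0021 to 0.0096). All 6 passed in replicates 6 to 10 alone. In replicates 1 to 5 alone, CD68, CSF1R and SPI1 passed, while AIF1 (−0.95, adjusted p = 0.17), CYBB (−0.89, adjusted p = 0.26) and MARCO (−0.79, adjusted p = 0.23) did not.

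Replicates 1 to 5 keep their letters from 3 to 18 DPA, and over this span all 6 genes fell, where 7.28% of all probes did. The differences at 18 DPA against 3 DPA were −1.83 for CSF1R, −1.68 for CYBB, −1.66 for CD68, −1.47 for AIF1, −1.17 for MARCO and −1.01 for SPI1 (SE from 0.21 to 0.38, limma adjusted p from 8.87e-05 to 0.036). The calls of MARCO and SPI1 each depended on single arrays. MARCO did not pass without 18 DPA replicate 2 (−1.08), replicate 4 (−0.96) or replicate 5 (−1.12), or without 3 DPA replicate 1 (−0.94), replicate 4 (−1.10) or replicate 5 (−1.20), with adjusted p from 0.062 to 0.082. SPI1 did not pass without 18 DPA replicate 2 (−0.95), replicate 4 (−0.86) or replicate 5 (−0.92), or without 3 DPA replicate 1 (−0.74) or replicate 2 (−1.01), with adjusted p from 0.054 to 0.083.

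The last upward calls of the genes fell at different times. SPI1 last passed at 14 DPA and lay between 5.19 and 5.27 in the mean from 18 to 28 DPA, against 5.25 ± 0.20 at day 0. Those means, and the day 0 mean of MARCO (5.12), lie below the lowest array median of 5.70. They are in the range of the dim CSF1R probe, where a lower level may not show. CSF1R last passed at 16 DPA (0.90, SE = 0.33, adjusted p = 0.034), though not with the methods' t test or in replicates 1 to 5 alone (0.45). CD68 passed at every time from 1 to 24 DPA, though at 24 DPA not in replicates 6 to 10 alone (0.46, adjusted p = 0.11), and was 1.16 above day 0 at 22 DPA (SE = 0.23, adjusted p = 2.6e-04). MARCO did not pass at 18 DPA (0.41, adjusted p = 0.14) but passed at 20 DPA (0.86, SE = 0.22) and 22 DPA (0.85, SE = 0.18). In replicates 6 to 10 alone none of the 3 calls at 20 DPA was made, with differences of 0.42 for CYBB, 0.57 for MARCO and 0.67 for CD68, against 1.73, 1.16 and 1.48 in replicates 1 to 5. The numbers of genes that passed upward at 16, 18, 20 and 22 DPA were 5, 3, 3 and 4 of 6, where 11.0%, 11.6%, 11.6% and 11.8% of all probes did. At 24, 26 and 28 DPA, 1, 0 and 2 of the 6 genes passed upward, where 12.9%, 11.7% and 10.7% of all probes did, so the counts at 24 and 26 DPA were near that share. The 2 genes at 28 DPA were AIF1, with a difference of 0.84 (SE = 0.20, adjusted p = 0.0021), and CYBB, with 0.63 (SE = 0.20, adjusted p = 0.014). CYBB averaged 8.06 ± 0.25 at 28 DPA (n = 9), against 7.43 ± 0.59 at day 0 (n = 10). In replicates 6 to 10 alone CYBB did not pass (0.37, adjusted p = 0.32), and in replicates 1 to 5 alone AIF1 did not (0.66, adjusted p = 0.055). From 20 to 28 DPA, within 1 series in each set, none of the 6 passed in all arrays (limma, differences from −0.54 to 0.35, unadjusted p from 0.064 to 0.745), where 0.449% of all probes rose and 0.978% fell, and in replicates 1 to 5 alone CD68 passed with −0.96 (adjusted p = 0.021).

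Replicates 1 to 5 share letters at 28 DPA and day 0. CYBB averaged 8.02 ± 0.14 at 28 DPA, against 7.12 ± 0.50 at day 0, and did not overlap, with a difference of 0.90 (SE = 0.21, limma adjusted p = 0.0052). Such a separation upward was found for 17.3% of all probes. It was the only 1 of 6 to pass upward, where 13.6% of all probes did. CD68 (0.52, adjusted p = 0.030) was under the fold threshold, and MARCO (0.55), AIF1 (0.66), SPI1 (0.00) and CSF1R (−0.33) did not pass on adjusted p (0.055 to 0.98). CD68 passed without 28 DPA replicate 4 (0.58) or 0 DPA replicate 1 (0.60), AIF1 without 28 DPA replicate 4 (0.84) or 0 DPA replicate 5 (0.79), and MARCO without 28 DPA replicate 5 (0.64) or 0 DPA replicate 5 (0.67).

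Ordered by their means, neighbouring time points in that order lay closer to each other than the larger of their 2 SDs in every gene. With 20 means sorted by size the gaps are small by construction, and they say nothing of steps in time. The widest gap was 0.62 in CSF1R, between 14 DPA (7.59 ± 1.53) and 2 DPA (6.98 ± 0.78). In CYBB it was 0.44, between 20 DPA (8.51 ± 0.68) and 28 DPA (8.06 ± 0.25), and in SPI1 0.46, between 0.5 DPA (6.03 ± 0.58) and 16 DPA (5.57 ± 0.41). The highest means were at 2 DPA for CYBB and SPI1 and at 3 DPA for the others. The lowest were at day 0 for CYBB, CD68, MARCO and AIF1, at 26 DPA for CSF1R (5.81 ± 0.48) and at 18 DPA for SPI1 (5.19 ± 0.42).

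CSF1R at 14 DPA gave the widest of the 114 contrasts between sets of replicates. It had values of 9.42, 9.62, 8.03, 8.62 and 8.95 in replicates 6 to 10 at 14 DPA, against 6.19, 5.73, 6.61, 7.16 and 5.59 in replicates 1 to 5. At day 0 it had 6.64, 6.21, 5.85, 6.76 and 5.84 in replicates 6 to 10, against 5.58, 6.44, 5.71, 6.05 and 5.45 in replicates 1 to 5. The sets did not overlap at 14 DPA and did overlap at day 0. The share of all probes whose sets separate in this way was not counted. The difference from day 0 was larger by 2.26 in replicates 6 to 10 (SE = 0.45, limma interaction adjusted p = 0.0074), and larger by 1.30 for SPI1 (SE = 0.34, adjusted p = 0.028), where 6.59% of all probes differed between the sets. For AIF1 it was larger by 1.06 (adjusted p = 0.17), for CD68 by 0.84 (adjusted p = 0.082), for MARCO by 0.59 (adjusted p = 0.51) and for CYBB by 0.43 (adjusted p = 0.60). In the methods' t test at p = 0.01, CSF1R and MARCO did not pass at 14 DPA against day 0. MARCO did not in replicates 6 to 10 alone (1.09, adjusted p = 0.064), and CSF1R (0.41), MARCO (0.49) and SPI1 (0.28) did not in replicates 1 to 5 alone.

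The means of the osteoclast, pan-leukocyte and skeletal muscle lists were also higher in replicates 6 to 10 at 14 DPA, the muscle values with a wide spread. The sets are not compared here for the other lists or at other times. The mean of 6 osteoclast genes was 8.88 ± 0.54 in replicates 6 to 10 (range 8.01 to 9.41), against 7.31 ± 0.54 in replicates 1 to 5 (range 6.63 to 7.86; SD, n = 5 each). The mean of 17 pan-leukocyte genes was 7.00 ± 0.35 in replicates 6 to 10, against 6.31 ± 0.23 in replicates 1 to 5, and that of 18 skeletal muscle genes was 6.38 ± 1.63 in replicates 6 to 10, against 5.17 ± 0.66 in replicates 1 to 5. The part of these cell types in the difference of CSF1R was not tested.

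CD68 showed a different contrast of the sets. At day 0 it had 7.09, 6.87, 6.84, 6.71 and 6.66 in replicates 6 to 10, against 6.17, 5.62, 6.02, 5.90 and 5.44 in replicates 1 to 5, with no overlap. How many of all probes separate the sets at day 0 was not counted either. At 4 DPA the sets averaged 8.59 ± 0.46 in replicates 6 to 10 and 8.66 ± 0.30 in replicates 1 to 5. The difference from day 0 was smaller in replicates 6 to 10 by 1.07 at 4 DPA, by 1.12 at 5 DPA and by 1.16 at 7 DPA (SE from 0.27 to 0.32, limma interaction adjusted p from 0.013 to 0.020), where 12.3%, 12.2% and 13% of all probes differed between the sets. Together with SPI1 at 12 DPA, larger by 0.95 (SE = 0.27, adjusted p = 0.046; 5.66% of all probes), 6 of 114 interaction tests passed, near the 5.22% of all probe comparisons.

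Across samples of the same time point and set, the 6 genes varied together. Each value was taken as its deviation from the mean of its time point and set, over 198 arrays, and all 15 pairs were compared. Pearson's r ran from 0.41 (CD68 and SPI1) to 0.70 (CYBB and AIF1), and Spearman's rho from 0.41 to 0.70. For each pair the permutation p was 1e-05 before and after Benjamini-Hochberg adjustment over the 15 pairs, the smallest that 100000 permutations can give. Without the 2 arrays farthest from the median, r ran from 0.40 to 0.69. Within replicates 6 to 10 alone it ran from 0.45 to 0.69 (98 arrays), and within replicates 1 to 5 alone from 0.30 to 0.71 (100 arrays). The genes of a pair come from the same array and share its RNA and normalization. Pairs of other genes were not compared, so whether such r is particular to these genes was not tested.

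Over the means of the 20 time points the pairs spread more widely. CYBB and AIF1 had r = 0.95, CD68 and CSF1R r = 0.94 and CD68 and MARCO r = 0.90, while MARCO and SPI1 had r = 0.41 and CD68 and SPI1 r = 0.52. These are descriptions of 20 time points that follow one another.

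**Figure D4:**
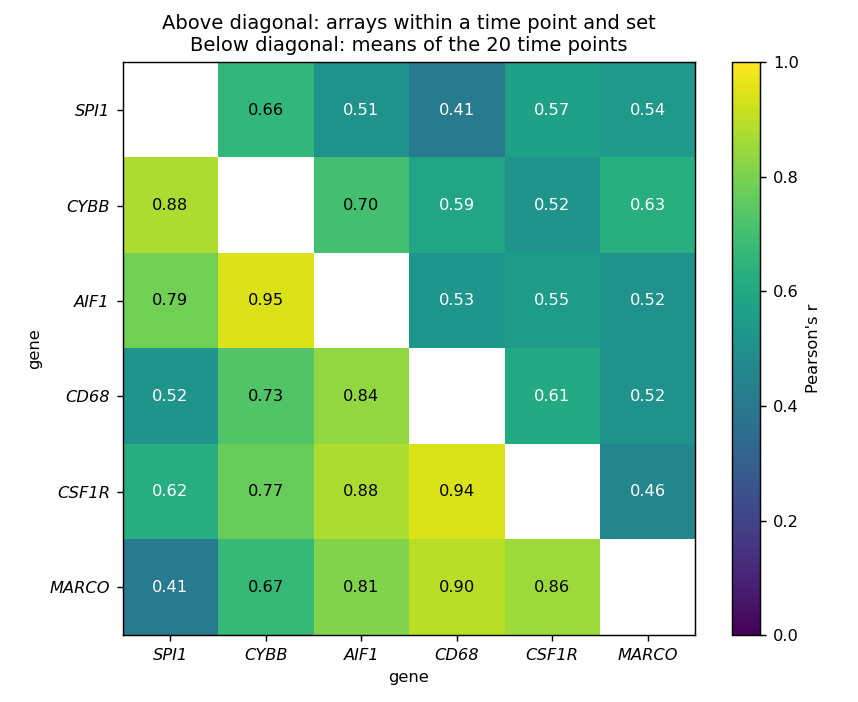
Pearson's r for each pair of genes, coloured from 0 to 1. Cells above the diagonal use deviations of 198 arrays from the mean of their time point and set, and cells below it use the means of the 20 time points. The values run from 0.41 to 0.70 above the diagonal, and from 0.41 for MARCO and SPI1 to 0.95 for CYBB and AIF1 below it.

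The named probes of other genes with the most similar course were sought by Pearson's r over the 20 time-point means. They are the highest of all named probes, so a high r comes with the selection, and r does not measure the size of a change. For the mean of the 6 standardized courses these were TLR7 (r = 0.98), JAK1 (0.97), TNIK (0.97), GNAI2 (0.97) and BRI3 (0.97). In that order, their means were 7.28, 4.49, 4.87, 9.46 and 9.85 at day 0, and 9.35, 5.34, 6.32, 10.74 and 10.58 at 3 DPA. For CD68 the most similar probes were LGMN (0.96), CTSB (0.95) and SOAT1 (0.95). For CSF1R they were NPC2 (0.97), ATP6V1A (0.97) and ATP6V1H (0.96), and for MARCO CTSB (0.94), ADCY4 (0.93) and CUBN (0.93). For CYBB they were TSPAN3 (0.98), SLC11A1 (0.98) and BCAN (0.97), for SPI1 SNX10 (0.96), LCP2 (0.95) and ARHGEF2 (0.94), and for AIF1 MCOLN2 (0.97), JAK1 (0.97) and ACAN (0.97).

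The lists below hold the genes that the platform annotation names. Partners of the members behaved unevenly. Of 3 NADPH oxidase partners of CYBB with a probe, 2 rose and 1 did not pass at 3 DPA, where 8.87% of all probes rose. NCF1, the organizing subunit p47phox, averaged 7.52 ± 0.80 at 3 DPA, against 4.11 ± 0.18 at day 0 (SD, n = 10 each), a difference of 3.42 (SE = 0.24, limma adjusted p = 8.4e-10). CYBA, the p22phox subunit that binds the CYBB protein, averaged 11.54 ± 0.43 at 3 DPA, against 9.44 ± 0.30 at day 0, a difference of 2.09 (SE = 0.16, adjusted p = 1.62e-09). NCF1 passed upward in 18 of 19 comparisons with day 0 and CYBA in 14, where 9.63% of probe comparisons did over all probes. Both had their largest difference at 2 DPA, as CYBB did. The GTPase RAC1 differed by 0.34 at 3 DPA, under the fold threshold.

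Of 5 CSF1R ligands and lineage transcription factors with a probe, only BACH1, a heme-responsive repressor, passed upward at 3 DPA, where 8.87% of all probes did. Its difference was 0.73 (SE = 0.18, adjusted p = 0.0023), and it passed in 1 of 19 comparisons with day 0. IL34, a ligand of CSF1R, differed by −0.27 at 3 DPA (adjusted p = 0.029). The lineage factors IRF8 and RUNX1 differed by 0.36 (adjusted p = 0.061) and 0.30 (adjusted p = 0.0016) there, and all of these were under the fold threshold. At 2 and 10 DPA IRF8 did pass upward, with its largest difference at 10 DPA (0.67, SE = 0.16, limma adjusted p = 0.0017). Of 6 scavenger receptors other than MARCO, 0 rose and 1 fell at 3 DPA, where 9.74% of all probes fell. This was COLEC12, a collectin-type scavenger receptor, which averaged 7.73 ± 0.72 at 3 DPA, against 8.89 ± 0.62 at day 0, a difference of −1.15 (SE = 0.28, adjusted p = 0.0022). In replicates 6 to 10 alone its difference was −0.38 (adjusted p = 0.43).

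Among 13 other macrophage genes with a probe, 8 rose, 0 fell and 5 did not pass at 3 DPA, with a median difference of 1.00, where 8.87% of all probes passed upward. The median over all probes stayed between −0.01 and 0.07 in every comparison of time points. HMOX1, which degrades heme, rose by 3.98 (SE = 0.25, adjusted p = 1.1e-10), LYZ, lysozyme, by 2.34 (SE = 0.17), TLR2, a receptor for bacterial lipopeptides, by 2.16 (SE = 0.35) and C1QB, a chain of complement C1q, by 2.02 (SE = 0.24). From 10 to 18 DPA, 6 of the 13 fell and 1 rose (median −0.79), where 3.75% of all probes fell and 2.56% rose. CD74, the invariant chain of MHC class II, did not rise in any comparison with day 0 and fell in 11 of 19, where 8.28% of probe comparisons fell. Of 17 pan-leukocyte genes, 12 rose and 0 fell at 3 DPA, led by the actin-bundling gene LCP1 (2.20, SE = 0.17), the tetraspanin CD53 (2.13, SE = 0.11), PLEK (1.99, SE = 0.20) and NCKAP1L (1.95, SE = 0.16). At 18 DPA 0 of the 17 were up and 2 were down against day 0, where 11.6% of all probes were up and 8.7% were down.

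Lists for other cells that the tissue could hold are given mainly at 3 DPA, where 8.87% of all probes rose and 9.74% fell. Of 6 osteoclast genes, 2 rose at 3 DPA, ACP5, the tartrate-resistant acid phosphatase, by 1.82 (SE = 0.19) and TCIRG1, a proton pump subunit, by 1.67 (SE = 0.10). At 10 DPA 4 of the 6 rose, where 11.7% of all probes did. The osteoclast list then had a median of 1.69, and ACP5 was 3.18 above day 0. From 10 to 18 DPA, the interval in which all 6 macrophage genes fell, 4 of the 6 osteoclast genes fell (median −1.46), where 3.75% of all probes did. Of 18 skeletal muscle genes, 15 fell at 3 DPA (median −1.55), led by ATP2A1 (−2.18), LDB3 (−2.17), ACTN2 (−2.08) and ACTN3 (−2.07), and 17 had fallen at 10 DPA (median −6.27), where 9.67% of all probes fell. Of 13 epidermis genes, 5 rose at 3 DPA and 1 fell, the latter near the share of all probes. TGM1, which cross-links the outer epidermis, rose by 3.37 (SE = 0.33), PKP1 by 1.43, ITGB4 by 0.89 and PKP3 by 0.86. Of 3 lymphocyte genes only BLNK, an adaptor of B cell signaling, rose (0.76, SE = 0.14), and CD79A differed by 0.09. Of 4 erythrocyte genes none passed at 3 DPA.

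**Figure D5:**
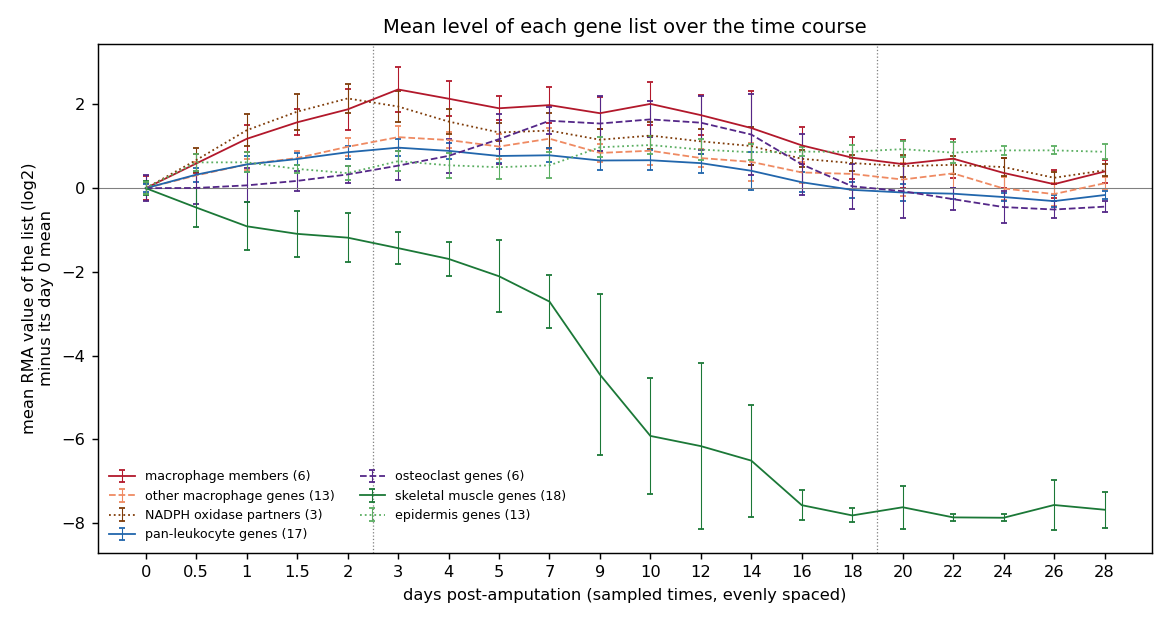
Lines give the mean RMA value (log2) of each gene list minus its own day 0 mean, against days post-amputation at the sampled times, evenly spaced, with the number of genes in brackets. Bars are SDs over the 9 or 10 arrays of a time point, and dotted lines mark the changes of letter series after 2 and 18 DPA. The 6 macrophage genes are highest at 3 DPA and the NADPH oxidase partners at 2 DPA. The osteoclast genes are highest between 7 and 12 DPA, and the muscle genes lie below day 0 at every later time.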

How the data were processed

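The deposited values are log2 intensities, which the authors made from the scans of custom Amby002 GeneChips by RMA in Affymetrix Expression Console, without a stated version. RMA equalizes array distributions, so changes are relative to the bulk of probes. No depth applies to arrays. Of 20080 probes, 45 controls were left out. Arrays were grouped by the time in their titles. For 2 arrays of 0.5 DPA another label gives another time, and they were kept.

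Time points were compared pairwise with limma 3.58.1 (lmFit, eBayes; R 4.3.3) on their own arrays, and sets of replicates by an interaction. Relations used 100000 permutations in numpy 2.4.6, with ranks from scipy 1.17.1. The text names every probe of the 6 genes, the 5 probes most like their mean course and 3 most like each, and up to 4 list genes with the largest differences at 3 DPA among those past the threshold. A few further list genes (RAC1, IL34, IRF8, RUNX1, CD74, CD79A, MMP9) were chosen after their values were seen. A list uses 1 probe a gene, that with the highest mean. Genes the platform annotation does not name are not in the lists, except 7 neutrophil genes named from the study's probe list, added after the data were seen. The lists sought 37 other macrophage, 15 CSF1R ligand and transcription factor, 6 NADPH oxidase, 14 scavenger receptor, 27 pan-leukocyte, 20 neutrophil, 16 osteoclast, 22 lymphocyte, 14 erythrocyte, 24 muscle and 18 epidermis symbols. IRF8 is in 2 lists. The members and lists were chosen with earlier results of these data known. Scripts were tested on simulated data.

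Alternatives were a single model over every array, the t test of the methods, a 2-fold or no fold threshold, a filter on dim probes, median centring, a second quantile normalization, array weights, blocks for replicate number and set, each set alone, the fit without the 2 arrays, and left-out replicates.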

Additional observations from a re-analysis of the deposited data

Results flagged for a closer look

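In 8 of 120 groups of arrays (6 genes at 20 time points) 1 array stood far from the others, judged by its gap to the nearest array as a share of the range. Chance alone gives about 1 such group in 20. AIF1 stood at 12.26 in replicate 8 at 2 DPA, with the next array at 11.44. CD68 stood at 8.97 in replicate 9 at 20 DPA (next 7.75). CYBB stood at 11.60 in replicate 10 at 4 DPA (next 10.87), at 9.47 in replicate 2 at 5 DPA (lowest, next 10.10), at 10.88 in replicate 8 at 12 DPA (next 9.81) and at 11.00 in replicate 7 at 14 DPA (next 9.89). MARCO stood at 4.71 in replicate 10 at 0.5 DPA (lowest, next 5.19) and at 7.78 in replicate 7 at 14 DPA (next 6.31). All 8 calls concern different arrays except that replicate 7 at 14 DPA stood highest for both CYBB and MARCO.

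The difference from day 0 was not the same in the 2 sets of replicates, by limma's interaction test, in 6 of 114 tests. In replicates 6 to 10 minus replicates 1 to 5, the difference was −1.07 at 4 DPA, −1.12 at 5 DPA and −1.16 at 7 DPA for CD68, 0.95 at 12 DPA and 1.30 at 14 DPA for SPI1, and 2.26 at 14 DPA for CSF1R. The dim probe of CSF1R, axo10884-f_at, also differed between the sets at 14 DPA, by 0.52 (SE = 0.14, adjusted p = 0.035). The sets carry different letters throughout, and the part of the letter series in these differences was not tested.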

How the results depend on the processing

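Upward comparisons with day 0 numbered 67 to 87 under the alternatives, against 85, none turned downward, and 0 were downward under any. Adjacent upward calls numbered 8, and 5 with a 2-fold threshold, 1 in replicates 6 to 10 by themselves, 5 in replicates 1 to 5, 6 with the t test after Benjamini-Hochberg adjustment, 10 with it at p = 0.01, and 8 or 9 under the other alternatives. SPI1 at 3 against 2 DPA was the 1 downward call with a single model over every array, with the replicate block, and in replicates 1 to 5 alone, and CYBB at 24 against 22 DPA was the 1 downward call with the t test of the methods at p = 0.01. Within letter series, downward calls numbered 9, and 5 in replicates 1 to 5 alone. Within replicates 1 to 5, the 1 upward call became 0 with the t test at p = 0.01 or a 2-fold threshold, 2 with no fold threshold, a filter on dim probes, median centring or a second quantile normalization, and 3 with array weights, and the 6 downward calls became 2 with the t test. Leaving out 1 replicate gave 1 to 3 upward and 4 to 6 downward calls. The set differences numbered 4 to 7, against 6, and the fold threshold does not enter that test. All 15 relations held in each set, with deviations from time points alone and with median centring. MARCO passed upward against day 0 in 13 comparisons, in 7 with a 2-fold threshold and in 8 in replicates 6 to 10 alone, and CSF1R in 11, and in 7 in replicates 1 to 5 alone. The highest-mean probe of each gene is the probe used, so that alternative gave the same values. Leaving out the comparison of 14 DPA, an alternative added after the data were seen, left 79 upward calls.

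Arrays of different time points share replicate numbers, but the numbers do not pair them. Deviations of same-numbered arrays correlated at a median of 0.10, as did those of other numbers in the same set, in 0 of 42 comparisons did every pair exceed 0.1, and 64 of 414 samples correlated best with their own number. With the replicate block 85 comparisons with day 0 and 9 adjacent ones passed upward, and within letter series 10 fell in both sets and 5 in replicates 1 to 5, where MARCO was lost.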
